A study of Mus musculus with 4 samples.

Results

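The genes described here are the enzymes of glycolysis and the genes that cells switch on under low oxygen, in mammospheres of mice exposed to a plastics monomer, a carcinogen, both or neither. They were taken by symbol from a list of 34 genes, of which 33 were among the 22609 genes counted, and all 33 had enough counts to be tested. The symbol Ca9 was not found. RefSeq gives Ca9 as an older name of Car9, a carbonic anhydrase of the cell surface, whose values are given beside the members without being counted among them. Of the 33 members, 20 were glycolytic enzymes or regulators of glycolytic flux and 13 were hypoxia-induced genes, oxygen sensors or alpha subunits of the hypoxia-inducible factor (HIF).

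Mammospheres are cell colonies that grow in suspension on plates to which cells do not stick. Here they were grown for 7 days from basal cells that had been isolated by flow sorting from mammary glands of Balb/C mice aged 4 months. Control mice received sesame oil by daily gavage for 3 weeks from day 21, BPA mice received bisphenol A, an estrogenic plastics monomer, at 25 µg/kg/day over the same weeks, DMBA mice received the oil and then a single gavage of the carcinogen 7,12-dimethylbenz[a]anthracene at 30 mg/kg at 2 months, and BPA+DMBA mice received both. All mice were kept on a low-phytoestrogen diet. Each group was 1 library made from spheres of 5 pooled animals, so the spread between animals was not measured.

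Glycolysis splits glucose to pyruvate, and lactate dehydrogenase can then turn pyruvate into lactate. When oxygen is low, the prolyl hydroxylases that mark HIF-1alpha and HIF-2alpha for degradation slow down, and the stabilised alpha subunits, paired with ARNT, activate genes for glucose use, vessel growth, collagen modification and mitophagy. HIF protein is controlled mainly by its degradation, so the mRNA of Hif1a and Epas1 does not report its activity.

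Counts assigned to genes ranged from 15672532 in BPA+DMBA to 30627055 in control. Levels below are CPM, the counts relative to a library size that was scaled by edgeR's TMM factors, a trimmed mean of log ratios. Basal markers were present in all libraries, with Krt5, a basal keratin, at 118 CPM in control, 149 with BPA, 559 with DMBA and 468 with both, but Krt8, a luminal keratin, was also present at 595 to 713 CPM. Between the libraries without and with DMBA the summed markers moved: basal markers were at 3721 and 3732 CPM without and 4521 and 4675 with DMBA (16 of 16 tested, 9 called higher), squamous markers at 138 and 172 without and 466 and 578 with it (12 tested, 10 higher), luminal markers at 14633 and 15237 without and 10177 and 10309 with it (15 tested, 6 lower and 3 higher), and cell-cycle genes at 499 and 556 without and 775 and 814 with it (12 tested, 12 higher). The largest term of the basal sum was Itgb1, at 1839 CPM in control, 1864 with BPA, 1445 with DMBA and 1649 with both. Of the 16 basal markers, 13 had a log2 change with DMBA above 0. Itgb1, Itga6 and Lgr6 were below 0 and were not called. Most of the luminal sum was Ltf, at 10629 CPM in control, 10024 with BPA, 7055 with DMBA and 6925 with both. Ltf was not called (edgeR adjusted p = 0.0682), nor were the keratins Krt8, Krt18 and Krt19 (adjusted p = 0.942, 0.0965 and 0.108). Endothelial and pericyte markers were summed at 285 to 375 CPM (10 tested, 5 higher). Most of that sum was Cspg4, at 269, 245, 189 and 287 CPM in the same order, the 1 marker of the 10 with a log2 change below 0. Immune markers were summed at 23.7 to 29.1, with Ptprc at 1 to 3 counts. Adipocyte markers were at 5.8 to 17.9, nearly all from Fabp4 (5.70, 6.37, 17.7 and 15.2 CPM), while Adipoq, Plin1, Lep, Cidec and Retn had too few counts to be tested. Erythroid markers were at 0.4 to 0.9, with 4 globin genes at 0 in every library. The part of these markers in the results on DMBA was not tested. In pooled spheres, fewer cells of a type and less RNA per cell cannot be told apart.

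Several enzymes of glycolysis have many processed copies in the mouse genome, so a read from their transcripts may be placed in more than 1 locus and then be left uncounted. In each transcript of the GENCODE annotation on GRCm38, the share of 50-base stretches that also occur in a transcript of another locus was 82.5% for Gapdh, 72.2% for Eno1, 68.0% for Pgk1 and 41.5% for Pgam1. It lay between 7.51% and 27.0% for Tpi1, Aldoa, Ldha, Gpi1, Bnip3, Bnip3l and Ldhb, and at 0.61% or below for the other 22 members. Of the 33 members, 11 shared at least 5% of their stretches, against 1180 of 13131 tested genes with a transcript. Per kilobase of exon the mean level over the 4 libraries was 346 CPM for Aldoa, 203 for Ldha and 101 for Tpi1, but 9.56 for Pgk1, 5.15 for Pgam1, 2.02 for Gapdh and 0.762 for Eno1. Gapdh, usually among the most abundant mRNAs of a cell, had 84 counts in control, 71 with BPA, 82 with DMBA and 41 with both, and Eno1 had 52, 38, 56 and 32 in that order. The levels of these 4 genes are therefore uncertain. Reads that aligned to more than 1 place were 22.9% of all deposited counts in control and 23.3% with BPA, against 25.6% with DMBA and 25.3% with both.

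**Figure D1:**
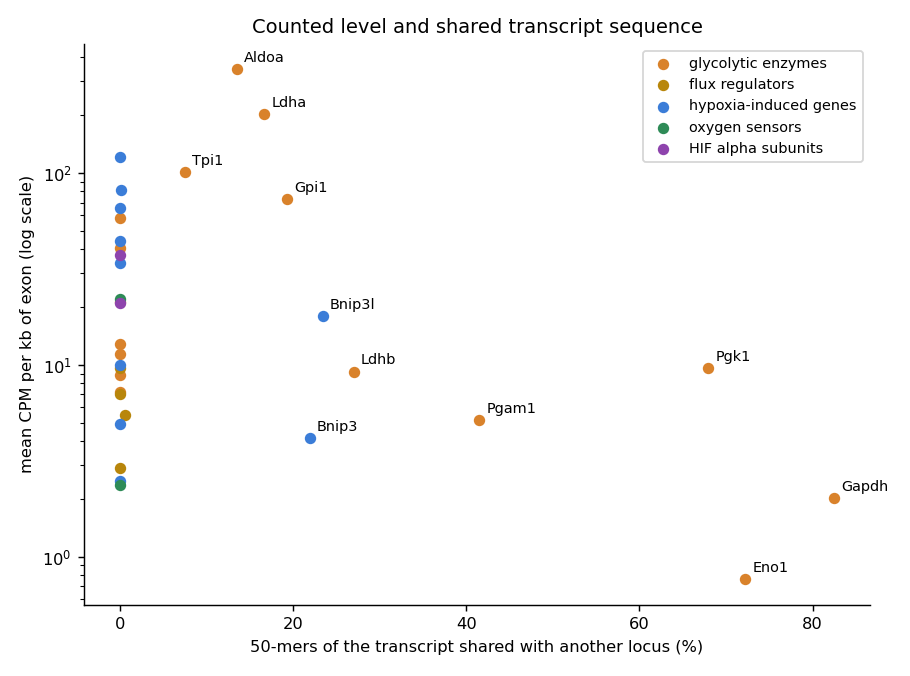
Mean level of each gene over the 4 libraries, in CPM per kilobase of exon on a log axis, against the percentage of 50-base stretches of its transcript found in another locus. Eno1 and Gapdh, with 72.2% and 82.5% shared, have the lowest levels at 0.762 and 2.02, while Aldoa at 13.5% shared has the highest at 346; Car9 is plotted beside the members.

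The effect of DMBA was read from both DMBA libraries against both libraries without it, in an additive fit of DMBA and BPA by edgeR's quasi-likelihood test with Benjamini-Hochberg adjustment over 13638 genes and a threshold of 0.05. With 1 library a group, the spread in this fit comes from 1 residual degree of freedom, the interaction of the exposures, in place of replicates. Of the 33 members 6 fell with DMBA and 0 rose: the enzymes Aldoc and Pfkl, the flux regulators Pfkfb3 and Pdk1, and the hypoxia-induced genes Vegfa and Ndrg1. Over all genes tested, 7.72% were called lower and 6.67% higher. Among the members 11 had an unadjusted p under 0.05, against 4236 of all 13638 genes. The members' median log2 change was -0.06, with 24 of 33 below 0, beside -0.0025 over all genes, of which 6866 were below 0. On the glycolytic side 4 of 20 fell, with a median of -0.05 and 13 below 0, and on the hypoxia side 2 of 13 fell, with a median of -0.14 and 11 below 0. All 6 that fell were among the 22 members that share under 5% of their stretches, whose median was -0.17. The 11 members with more shared sequence had 0 calls and a median of -0.00015.

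**Figure D2:**
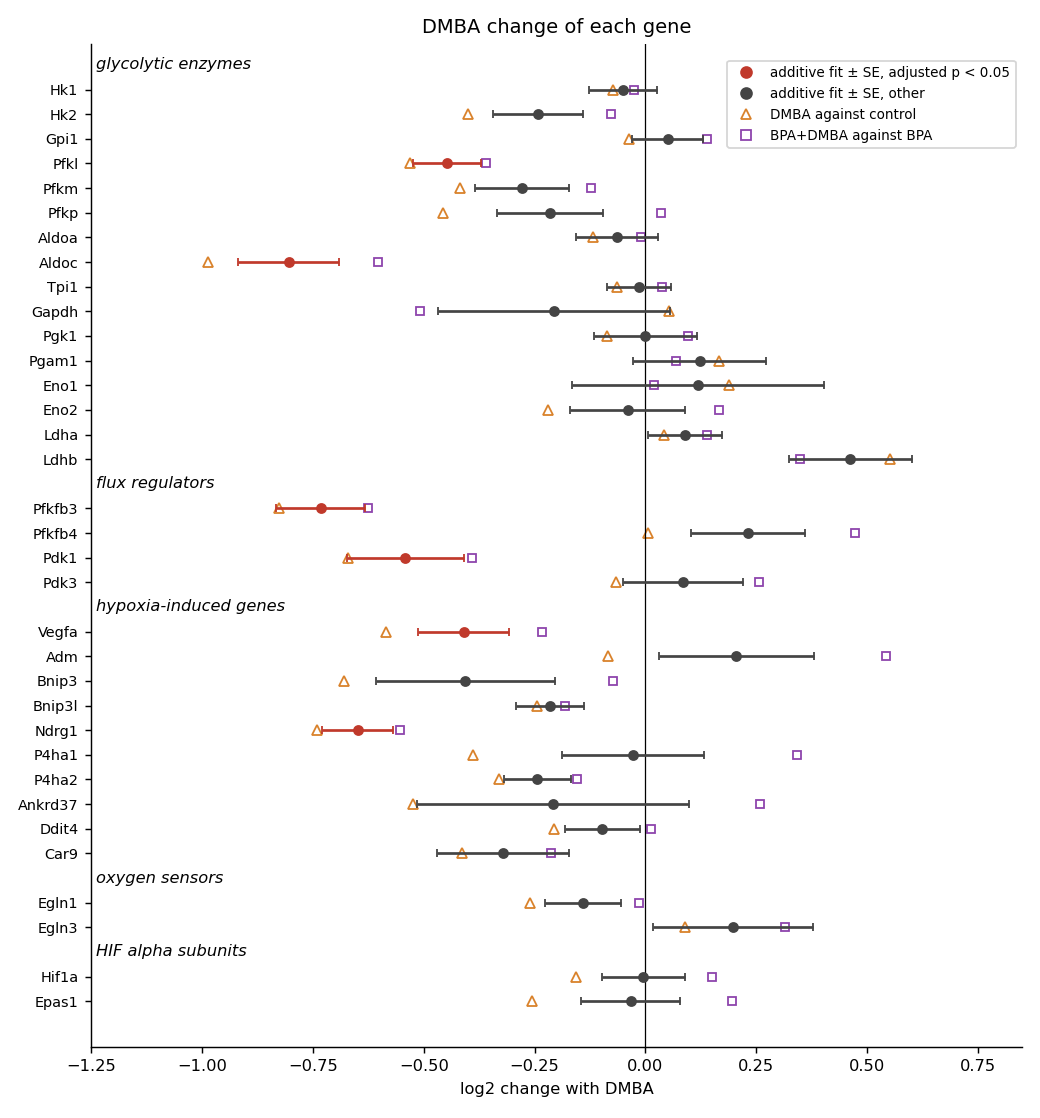
Log2 change with DMBA of each gene, grouped by role: filled points with bars are the additive fit and its SE over 4 libraries (red where the edgeR adjusted p is under 0.05), triangles are DMBA against control and squares BPA+DMBA against BPA. The 6 red points lie between -0.80 for Aldoc and -0.41 for Vegfa, and in most rows the square lies to the right of the triangle; Car9 is not counted among the members.

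The promoters of 5 of the genes that fell, and of Ldha for comparison, are shown because HIF binds the core letters ACGTG or GCGTG. Each is the RefSeq window of GRCm38.p6 from 250 bases before to 50 bases after the gene's most upstream start, written 5′ to 3′ on the gene's strand. Capitals mark a core match on either strand, so that CACGT and CACGC are the 2 motifs read from the other strand, and CACGTG counts once on each strand.

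Aldoc, chr11:78322823-78323122, plus strand: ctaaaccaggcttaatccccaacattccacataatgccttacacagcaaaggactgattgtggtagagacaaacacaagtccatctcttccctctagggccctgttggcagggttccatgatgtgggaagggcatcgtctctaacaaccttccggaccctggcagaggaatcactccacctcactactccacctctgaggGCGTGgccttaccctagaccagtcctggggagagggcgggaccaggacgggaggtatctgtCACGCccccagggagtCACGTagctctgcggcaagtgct

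Pfkl, chr10:78009758-78010057, minus strand: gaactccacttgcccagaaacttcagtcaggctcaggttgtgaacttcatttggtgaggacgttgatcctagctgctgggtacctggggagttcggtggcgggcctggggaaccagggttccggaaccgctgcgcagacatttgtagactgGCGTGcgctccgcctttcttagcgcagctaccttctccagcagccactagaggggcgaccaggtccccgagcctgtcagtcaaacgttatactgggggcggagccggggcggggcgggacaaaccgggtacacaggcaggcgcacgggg

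Pfkfb3, chr2:11553880-11554179, minus strand: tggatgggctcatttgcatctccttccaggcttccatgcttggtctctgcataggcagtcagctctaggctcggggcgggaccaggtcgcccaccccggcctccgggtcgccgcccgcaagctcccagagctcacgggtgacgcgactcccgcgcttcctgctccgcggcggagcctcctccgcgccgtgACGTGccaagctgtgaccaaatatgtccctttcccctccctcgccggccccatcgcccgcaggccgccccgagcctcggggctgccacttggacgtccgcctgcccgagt

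Pdk1, chr2:71872974-71873273, plus strand: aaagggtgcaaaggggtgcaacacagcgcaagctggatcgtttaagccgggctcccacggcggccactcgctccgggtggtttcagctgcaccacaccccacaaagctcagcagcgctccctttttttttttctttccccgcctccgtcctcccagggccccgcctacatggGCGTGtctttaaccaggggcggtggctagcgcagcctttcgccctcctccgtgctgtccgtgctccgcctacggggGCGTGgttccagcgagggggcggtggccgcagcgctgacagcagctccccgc

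Vegfa, chr17:46032328-46032627, minus strand: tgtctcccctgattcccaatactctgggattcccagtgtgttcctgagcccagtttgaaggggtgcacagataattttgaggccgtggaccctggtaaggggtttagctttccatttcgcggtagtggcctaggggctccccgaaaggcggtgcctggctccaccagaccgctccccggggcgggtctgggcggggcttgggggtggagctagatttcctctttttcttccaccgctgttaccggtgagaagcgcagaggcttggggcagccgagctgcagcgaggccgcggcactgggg

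Ldha, chr7:46845554-46845853, plus strand: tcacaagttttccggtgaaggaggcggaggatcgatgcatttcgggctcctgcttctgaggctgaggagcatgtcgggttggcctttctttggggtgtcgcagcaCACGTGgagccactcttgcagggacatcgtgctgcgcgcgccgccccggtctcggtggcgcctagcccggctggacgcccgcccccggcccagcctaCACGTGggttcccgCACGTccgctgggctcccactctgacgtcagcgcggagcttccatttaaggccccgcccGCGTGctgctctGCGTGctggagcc

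The Aldoc window held 3 matches, that of Pdk1 2, those of Pfkl and Pfkfb3 1 each and that of Vegfa 0. RefSeq gives Vegfa and Pfkfb3 a further start each, whose windows held 2 and 4 matches. The Ldha window shown held 7, and Ldha did not pass the test for DMBA. A core match was present in the most upstream window of 24 of 30 members with a window (80%), against 43.84% of 27025 genes, and in any window of 27 of 30 (90%), against 46.73%. The 27025 genes include genes not tested here, whereas all members were tested. Both motifs contain CG, and the base composition of the windows was not matched, so these shares are not a like comparison. Among the members that fell, 4 of the 5 with a window held one in the most upstream window, as did 20 of 25 of the others. A match is a run of letters and not a measured binding site, and the absence of these letters from a window says nothing of HIF at that gene.

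At the first step of the pathway, Hk1, the hexokinase of most tissues, was at 279 CPM in control, 298 with BPA, 265 with DMBA and 292 with both. Hk2, the hexokinase induced by insulin and HIF, was at 53.6, 53.6, 40.6 and 50.8 in the same order. The DMBA library held the lowest value of both, and neither passed the test (log2 change -0.05 ± 0.077 SE, edgeR adjusted p = 0.697, and -0.24 ± 0.10, adjusted p = 0.161). Gpi1, which isomerises glucose-6-phosphate, stayed between 201 and 222 CPM (0.05 ± 0.080, adjusted p = 0.711).

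Phosphofructokinase commits sugar to glycolysis. Pfkl, its liver-type subunit, was at 182 CPM in control and 168 in BPA, and at 126 in DMBA and 131 in BPA+DMBA. It fell by 0.45 on the log2 scale (SE 0.077, edgeR adjusted p = 0.0168). The muscle-type subunit Pfkm (40.4, 34.1, 30.2 and 31.3 CPM) and the platelet-type subunit Pfkp (102, 92.5, 74.6 and 94.7 CPM) did not pass, with log2 changes of -0.28 and -0.22 and adjusted p of 0.132 and 0.270. Pfkp in BPA+DMBA was above its BPA value.

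Pfkfb3 makes fructose-2,6-bisphosphate, the strongest activator of phosphofructokinase. It was at 39.4 CPM in control, 35.6 with BPA, 22.2 with DMBA and 23.0 with both. Pfkfb3 fell by 0.73 (SE 0.10, edgeR adjusted p = 0.0103). Pfkfb4, its sister enzyme with the same products, was at 32.9, 28.7, 33.0 and 39.9 CPM and did not pass (0.23 ± 0.13, adjusted p = 0.271). Per exon length, Pfkfb3 made up 43.0% and 43.9% of the pair in control and BPA, and 29.8% and 26.7% in DMBA and BPA+DMBA.

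Aldolase splits the 6-carbon sugar. Aldoa, the main isoform of muscle and many other tissues, was at 643 CPM in control, 646 with BPA, 592 with DMBA and 642 with both (-0.06 ± 0.093, edgeR adjusted p = 0.677). Aldoc, the isoform known from brain, was at 52.5, 44.5, 26.4 and 29.3 CPM. It fell by 0.80 (SE 0.11, edgeR adjusted p = 0.0106), which was the largest change among the members. DMBA against control gave Aldoc a log2 ratio of -0.99 (95% counting interval -1.12 to -0.86) and BPA+DMBA against BPA -0.60 (-0.77 to -0.44). Aldoc was a minor part of the aldolase mRNA throughout: its share of Aldoa and Aldoc per exon length was 4.77% in control, 4.05% with BPA, 2.66% with DMBA and 2.72% with both.

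**Figure D3:**
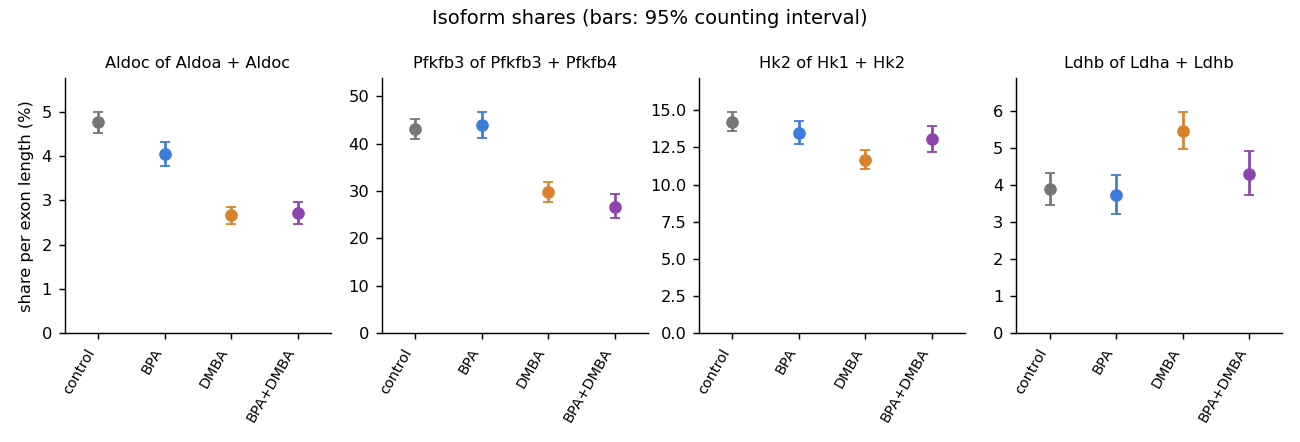
Share of one isoform in an isoform pair, per exon length, in each library, with 95% counting intervals. The shares of Aldoc and Pfkfb3 in both libraries with DMBA lie below both without it (Aldoc 2.66% and 2.72% against 4.05% and 4.77%), the share of Hk2 is lowest with DMBA alone (11.7%), and that of Ldhb highest there (5.46%).

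From triose phosphates to pyruvate, 0 of 6 members passed by edgeR, and 0 had an unadjusted p under 0.05. Tpi1, triose phosphate isomerase, lay between 175 and 184 CPM (-0.01 ± 0.073, edgeR adjusted p = 0.915). Pgk1, phosphoglycerate kinase, lay between 16.7 and 18.1 CPM, Pgam1, phosphoglycerate mutase, between 8.46 and 10.2, and Eno2, the neuronal enolase, between 17.5 and 23.3. Their adjusted p ran from 0.618 for Pgam1 to 0.999 for Pgk1. Gapdh (2.83, 3.71, 2.94 and 2.58 CPM) and Eno1 (1.75, 1.99, 2.01 and 2.01 CPM) rest on the few counts given above, with standard errors of 0.26 and 0.28.

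Lactate dehydrogenase is built from A and B subunits. Ldha, the subunit that favours lactate and a classical HIF target, was at 378 CPM in control, 366 with BPA, 389 with DMBA and 403 with both, and did not pass (0.09 ± 0.083, edgeR adjusted p = 0.506). Ldhb was at 10.5, 9.72, 15.5 and 12.4 CPM. Both libraries with DMBA were above both without for Ldhb, but the test did not pass (0.46 ± 0.14, adjusted p = 0.0737), and 27.0% of its stretches are shared with another locus.

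Pyruvate dehydrogenase kinases keep pyruvate out of the mitochondrial citric acid cycle. Pdk1, the kinase induced by HIF-1, was at 18.9 CPM in control, 16.6 with BPA, 11.9 with DMBA and 12.7 with both. It fell by 0.54 (SE 0.13, edgeR adjusted p = 0.0420). This call was lost in 5 of 7 alternative fits on all 4 libraries and in 2 of 4 fits that left out a library, where the adjusted p reached 0.297. Pdk3 lay between 13.2 and 15.8 CPM and did not pass (0.09 ± 0.14, adjusted p = 0.710).

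**Figure D4:**
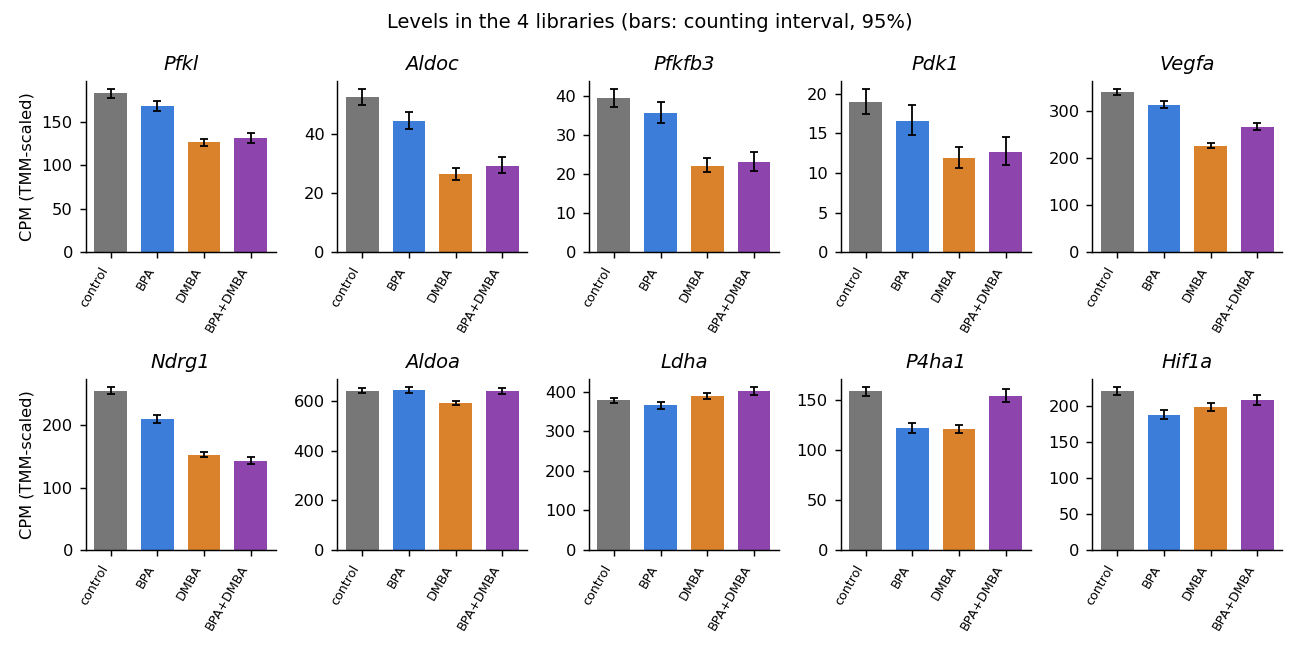
Level in CPM of the 6 genes that fell with DMBA and of 4 members that did not, in the 4 libraries, with 95% counting intervals; each axis starts at 0. In the 6 genes from Pfkl to Ndrg1 both libraries with DMBA are below both without. They were called on these same libraries, so this order is no added support. Aldoa and Ldha are nearly level, and P4ha1 is high in control and BPA+DMBA (158 and 154) and low in BPA and DMBA (122 and 121).

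Among hypoxia-induced genes, Ndrg1, a stress gene induced by HIF and by differentiation, was at 256 CPM in control, 210.3 with BPA, 153 with DMBA and 143 with both. It fell by 0.65 (SE 0.080, edgeR adjusted p = 0.00741). Vegfa, the vessel growth factor, was at 339.7 CPM in control, 314 with BPA, 226 with DMBA and 267 with both. It fell by 0.41 (SE 0.10, edgeR adjusted p = 0.0456). The call of Vegfa, like that of Pdk1, was lost in 5 of 7 alternative fits on all 4 libraries and in 2 of 4 with a library left out, with an adjusted p of up to 0.132. Aldoc, Pfkfb3 and Ndrg1 passed in 7 of the 7 fits on all libraries and Pfkl in 6 (adjusted p = 0.0781 with DESeq2). These 4 genes also passed in the 4 fits with a library left out, but there DMBA was the only term, 1 arm was a single library assumed to vary like the other arm, and the spread came from the other arm alone.

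The other hypoxia-induced members did not pass. Bnip3 and Bnip3l, which tag mitochondria for removal, were at 10.1, 7.42, 6.28 and 7.05 CPM and at 65.5, 60.2, 55.3 and 53.1 CPM (edgeR adjusted p = 0.224 and 0.114). P4ha2, a collagen prolyl hydroxylase subunit, was at 114, 109, 90.8 and 97.7 CPM, lower in both libraries with DMBA (-0.24 ± 0.076, adjusted p = 0.0815). Ddit4, an mTOR inhibitor, lay between 188 and 226 CPM, and Adm, a vasodilator peptide, between 10.3 and 15.3. Ankrd37 had 93, 34, 60 and 34 counts. Car9 was at 10.6, 11.4, 7.89 and 9.82 CPM (-0.32 ± 0.15, adjusted p = 0.202).

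The oxygen sensors and HIF subunits did not pass either. Egln1, the main prolyl hydroxylase that acts on HIF, was at 84.8 CPM in control, 81.7 with BPA, 70.7 with DMBA and 80.8 with both (-0.14 ± 0.085, edgeR adjusted p = 0.313). Egln3, a prolyl hydroxylase that is itself a HIF target, was at 5.66, 5.96, 6.03 and 7.43 CPM (0.20 ± 0.18, adjusted p = 0.50). Hif1a, which encodes HIF-1alpha, was at 222, 188, 199 and 209 CPM (-0.0045 ± 0.093, adjusted p = 0.979), and Epas1, which encodes HIF-2alpha, at 124, 111, 104 and 127 CPM (-0.03 ± 0.11, adjusted p = 0.871). For both genes the control and BPA+DMBA values were above those of BPA and DMBA.

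In single pairs of libraries a gene was counted where its ratio was at least 2-fold and the 95% counting interval excluded equality. By that rule 0 of 33 members differed in any of 5 pairs, against 6.55% of all genes in DMBA against control, 3.74% in BPA+DMBA against BPA, 0.829% in BPA against control, 1.09% in BPA+DMBA against DMBA and 4.38% in BPA+DMBA against control. At 1.5-fold, 5 members were lower in DMBA than in control (Aldoc, Pfkfb3, Ndrg1, Bnip3 and Pdk1), 3 of them on the glycolytic side, and 0 were higher, against 6.25% of all genes lower and 8.87% higher. In BPA+DMBA against BPA 2 were lower (Aldoc and Pfkfb3) and 0 higher, against 3.57% and 6.79%. In BPA+DMBA against control 3 were lower (Aldoc, Pfkfb3 and Ndrg1) and 0 higher, against 4.33% and 7.32%. These pairs compare single libraries and not conditions.

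The additive fit called 0 members, and 0% of all genes, for BPA in either direction. At an unadjusted p under 0.05 it gave 0 members and 304 of 13638 genes, and DESeq2 called 0 members and 1 gene. The member nearest to the threshold was Ndrg1 (-0.19 ± 0.080, edgeR unadjusted p = 0.0502, adjusted p = 0.999). In single pairs at 1.5-fold, 1 member was lower in BPA than in control, Ankrd37 (log2 ratio -0.79, counting interval -1.43 to -0.24), and 0 were higher, against 1.69% and 1.14% of all genes. In BPA+DMBA against DMBA 0 members differed in either direction, against 1.85% lower and 2.27% higher.

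For most members the log2 ratios of BPA and DMBA did not add up within counting error. The departure, which is the DMBA log2 ratio with BPA minus that without it, was above 0 for 29 of 33 members with a median of 0.23, whereas 48.01% of all genes were above 0 with a median of -0.01. The 95% counting interval lay above 0 for 22 of 33 members and below 0 for 0. Over all 13638 genes it lay above 0 for 2147 (15.74%) and below 0 for 2275. On the hypoxia side 13 of 13 were above 0 (median 0.31, 10 intervals above 0), and on the glycolytic side 16 of 20 (median 0.18, 12 intervals above 0). All these values come from the same 4 libraries, so the members are not independent observations, and the departure has no replicate check.

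P4ha1, the other collagen prolyl hydroxylase subunit, had the largest departure whose interval lay above 0. It was at 158 CPM in control, 122 with BPA, 121 with DMBA and 154 with both, so that the libraries with a single exposure lay below those with neither and with both. Its log2 ratio was -0.39 for DMBA against control and 0.34 for BPA+DMBA against BPA, a departure of 0.73 (counting interval 0.62 to 0.83). Adm followed with 15.3, 10.3, 14.5 and 15.1 CPM and a departure of 0.63 (0.29 to 0.96), then Bnip3 with 0.61, Pfkp with 0.49, Pfkfb4 with 0.47 and Epas1 with 0.45. P4ha1, Adm and Pfkp were singled out here after their values were seen.

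Of 9 fibroblast markers, 7 were likewise higher in both control and BPA+DMBA than in both BPA and DMBA. Dcn and Lum were not: Dcn was at 136 CPM in control, 128 with BPA, 175 with DMBA and 217 with both, and Lum at 75.2, 59.6, 85.5 and 100.4. The summed level of the markers, most of it from collagen genes, was 8681 CPM in control, 6463 with BPA, 5335 with DMBA and 8895 with both, with 9 of 9 detected, 1 called higher and 0 lower with DMBA. Col1a1, a collagen gene of fibroblasts, was at 3313, 2619, 1919 and 3484 CPM. Control and BPA+DMBA were also both above BPA and DMBA for 3 of 9 immune and 1 of 16 basal markers. The same held for 1 of 17 luminal and 1 of 10 endothelial and pericyte markers, and for 0 of 13 squamous markers. How many of all genes show this order was not counted. The part of the fibroblast markers in the departures was not tested.

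**Figure D5:**
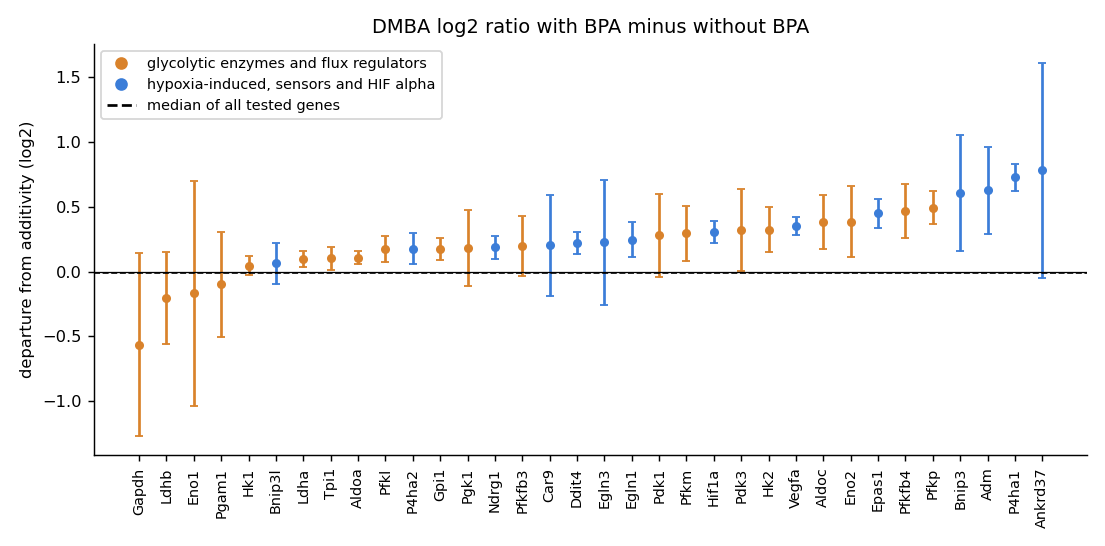
Departure from additivity of each gene, the DMBA log2 ratio with BPA minus that without it, in rising order, with 95% counting intervals; the dashed line is the median of all tested genes, -0.01. Of the 33 members, 29 lie above 0, from Hk1 to Ankrd37, and the hypoxia-side genes (blue) fill most of the right end; Car9 is plotted beside the members.

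By direction alone, 14 of 33 members were lower in both DMBA pairs, which share no library, 6 were higher in both and 13 moved in opposite directions. Over all 13638 genes 36.24% were lower in both, 4988 genes were higher in both and 27.17% moved in opposite directions. For BPA, 21 of 33 members moved in opposite directions without and with DMBA, against 52.63% of all genes. Summed over its members, the hypoxia side was at 1615 CPM in control, 1444 with BPA, 1237 with DMBA and 1389 with both. The glycolytic side was at 2298, 2231, 2075 and 2230 CPM, a sum whose largest terms were Aldoa and Ldha.

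Genes next to the members in the same pathways were read from lists, each given with its calls for DMBA in the same fit. Of 13 other glycolytic genes tested, 1 rose and 1 fell, with a median of 0.09: Ldhd, the D-lactate dehydrogenase, rose by 0.52 (SE 0.096, edgeR adjusted p = 0.0206), and Pfkfb2, the heart-type relative of Pfkfb3, fell by 0.40 (SE 0.071, adjusted p = 0.0191). Pgam2 and Gapdhs, the muscle mutase and the sperm form of Gapdh, did not pass (adjusted p = 0.150 and 0.620). Of 11 glucose and lactate transporters 1 fell, with a median of -0.16. That was Slc2a6, at 14.5, 11.5, 8.40 and 7.81 CPM (-0.69, adjusted p = 0.0307). Slc2a3, a high-affinity glucose transporter, at 15.1, 8.93, 7.00 and 11.3 CPM, Slc16a3, the lactate exporter, at 41.6, 27.0, 25.8 and 32.5 CPM, and Slc2a4 did not pass. Slc2a3 and Slc16a3 were highest in control, with BPA+DMBA next.

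The largest fall near the members was in Pdk4, the pyruvate dehydrogenase kinase of fasting and fatty acid use. It was at 116 CPM in control, 79.0 with BPA, 31.1 with DMBA and 34.2 with both, a change of -1.57 (SE 0.16, edgeR adjusted p = 0.00508). Pdk2 fell as well, from 37.5 and 30.3 CPM to 24.1 and 24.9 (-0.47, adjusted p = 0.0444). These were the 2 of 28 genes of pyruvate dehydrogenase and the citric acid cycle that passed, while the list's median was 0.08 and 20 of 28 were above 0. Of 11 pentose phosphate genes 2 rose, with a median of 0.10: the glucose-6-phosphate dehydrogenases G6pdx (135, 148, 176 and 178 CPM, adjusted p = 0.0352) and G6pd2 (36.6, 37.4, 48.7 and 46.4 CPM, adjusted p = 0.0376). These copies share sequence, and reads may have been split between them. Of 15 genes of gluconeogenesis and glycogen 0 passed by edgeR, and 1 had an unadjusted p under 0.05.

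Of 16 components of the HIF pathway 5 fell and 0 rose, with a median of -0.10. Among them were the coactivators Crebbp (112, 114, 80.8 and 79.6 CPM, -0.49, edgeR adjusted p = 0.0106) and Ep300 (249.9, 269, 195 and 193 CPM, -0.42, adjusted p = 0.0207). Vhl, which targets hydroxylated HIF for degradation, also fell (35.0, 37.4, 26.1 and 28.8 CPM, -0.40, adjusted p = 0.0349). Arnt2 went the other way and did not pass (9.81, 11.6, 16.3 and 11.6 CPM, 0.39, edgeR adjusted p = 0.227). Of the 16 components, 10 were below 0 and 6 above. Of 47 other HIF targets tested 7 fell and 1 rose, with a median of -0.03. Klhl24 (-0.60, adjusted p = 0.00829), Zfp395 (-0.63, adjusted p = 0.0207) and Rora (-0.63, adjusted p = 0.0430) fell, and Hmox1, the heme oxygenase of oxidative stress, rose from 102 and 107 CPM to 148 and 162 (0.56, adjusted p = 0.00754). These counts stand beside the same background of 7.72% lower and 6.67% higher.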

How the data were processed

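The authors deposited whole-number read counts per gene symbol for 4 RNA-seq libraries, 1 a group, from total RNA made into libraries by the Illumina TruSeq protocol, per the labels. Build mm9 and the tools CASAVA 1.8.2, HTSeq and DESeq are named in the submitters' processing notes. Aligner, strand setting and annotation are not given in the sources at hand. Reads given to no gene were not used: as shares of everything deposited, 11.3% to 13.5% fell outside genes, 22.9% to 25.6% aligned to more than 1 place and 0.435% to 0.449% lay on overlapping genes. A gene with 0 counts may hold up to 3, or 0.101 to 0.189 CPM. Intervals and floors cover counting error only.

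Genes reaching 20 counts in any library (13638) were TMM-scaled. DMBA and BPA were fitted as additive terms with edgeR 4.0.16 (quasi-likelihood) in R 4.3.3. Ratios of single pairs used a prior count of 2 and exact 95% Clopper-Pearson intervals. Fits were tested on simulated counts with the same spread for all genes and no interaction of the exposures. That simulation cannot show how the calls fare where the exposures do not add up. Alternatives were other scalings, filters, prior counts and folds, a length correction, DESeq2 1.42.0, DMBA or BPA as the only term, and leaving out each library. Exon lengths, shared 50-base stretches and promoters come from GRCm38 annotations, not the files' build, so no coordinates were read from the counts.

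The members and gene lists were chosen with earlier results of these data known. Values in every library were given for members called in a fit or at least 1.5-fold apart in a pair, for HIF subunits, sensors and an enzyme of each step, and, outside the members, up to 4 genes a list with the largest DMBA change among those with 100 counts in a library.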

Additional observations from a re-analysis of the deposited data

Results flagged for a closer look

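Members whose log2 ratio for 1 exposure was below 0 in 1 pair of libraries and above 0 in the other, with both counting intervals excluding 0, were taken for a closer look. The difference between the pairs was not tested, since each group was 1 library. It is the same quantity for DMBA with and without BPA and for BPA with and without DMBA. For P4ha1 it was 0.73, for Epas1 0.45 and for Hif1a 0.31, and these 3 changed direction for both exposures. For Pfkp it was 0.49, for Pfkfb4 0.47, for Vegfa 0.35, for Gpi1 0.18 and for Ldha 0.099, and these 5 changed direction for BPA: each was lower in BPA than in control and higher in BPA+DMBA than in DMBA. The summed fibroblast markers moved in the same directions, at 8681 CPM in control and 6463 in BPA, and at 5335 in DMBA and 8895 in BPA+DMBA. In 7 of the 9 markers, control and BPA+DMBA were both above BPA and DMBA. Dcn and Lum lacked that order, but they too were lower in BPA than in control and higher in BPA+DMBA than in DMBA. The share of all genes that changed direction with both counting intervals excluding 0 was not counted. By direction alone, 52.63% of all genes changed direction for BPA and 27.17% for DMBA. These shares leave out the counting intervals, so they cannot show whether the flagged members stand out from other genes. The counting interval of the departure lay above 0 for 22 of 33 members and below 0 for 0. Over all 13638 genes it lay above 0 for 2147 (15.74%) and below 0 for 2275.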

How the results depend on the processing

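No paired analysis was possible because each group held 1 library. For DMBA, 909 genes were called higher and 1053 lower; this became 889 and 431 when scaling by total counts, 535 and 521 with the length trend removed, and 341 and 334 with DESeq2, which called 3 members lower where edgeR called 6. With DMBA as the only term and a library left out, the counts ran from 446 (without control) to 1311 higher and from 523 (without control; 690 without BPA) to 1418 lower, and 4 to 9 members were called lower. The 9 were without BPA+DMBA, where Hk2, Pfkp and P4ha2 were added to the 6 and 1 member, Ldhb, was called higher. In these fits 1 arm was a single library, assumed to vary like the other arm. Pdk1 and Vegfa were not called without control, without DMBA, with either other scaling, with 20 counts required in every library, with the length trend removed or with DESeq2; their log2 changes ranged from -0.63 to -0.44 and from -0.52 to -0.30. Those of Aldoc, Pfkfb3, Ndrg1 and Pfkl ranged from -0.92 to -0.68, -0.80 to -0.65, -0.79 to -0.50 and -0.51 to -0.36. For BPA, omitting the low-count filter called 1 gene higher and 1 lower, and DESeq2 1 higher; without the filter 66 genes were 2-fold higher in BPA than in control and 107 in BPA+DMBA than in DMBA, against 37 and 58 with it. At 1.5-fold in place of 2-fold the genes higher and lower were 1210 and 853 for DMBA against control, 926 and 487 for BPA+DMBA against BPA, 155 and 230 for BPA against control, 309 and 252 for BPA+DMBA against DMBA, and 998 and 591 for BPA+DMBA against control, with 5, 2, 1, 0 and 3 members lower. With the length trend removed 1 member was 2-fold lower in DMBA than in control.

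Total counts moved the median of all genes by 0.11 for DMBA against control, and the changes in the text are relative to that median. Members that did not pass could change sign. With total counts the DMBA log2 changes became 0.034 for Hk1, 0.020 for Aldoa, 0.070 for Tpi1, 0.085 for Pgk1, 0.046 for Eno2, 0.056 for P4ha1, 0.080 for Hif1a and 0.051 for Epas1. With the length trend removed they became -0.018 for Gpi1, -0.028 for Pgam1, -0.051 for Ldha, -0.037 for Pdk3, 0.061 for Hif1a and 0.035 for Epas1. Pgk1 became 9.2e-05 with DESeq2's size factors, 0.0036 with 20 counts in every library and 0.0028 with DESeq2. With 1 library left out, Tpi1 ranged from -0.05 to 0.02, Pgk1 from -0.06 to 0.062 (0.028 without DMBA), Eno2 from -0.24 to 0.18, P4ha1 from -0.21 to 0.17 (0.13 without DMBA), Ankrd37 from -0.54 to 0.27, Hif1a from -0.12 to 0.12 (0.021 without DMBA), Epas1 from -0.18 to 0.11 (0.050 without control), Pdk3 from -0.031 to 0.22, Adm from -0.055 to 0.51, Hk1 from -0.11 to 0.015 and Ddit4 from -0.22 to 0.030. The causes of these differences were not tested. Gapdh, Eno1 and Ankrd37 rest on 93 counts or fewer in every library.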
